A study of Mus musculus with 6 samples.

Results

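Onecut1, Onecut2 and Onecut3 are the 3 mouse genes of the Onecut family of transcription factors, and the arrays carried 1 probe for each of them. They are 3 of the 19897 genes with a named probe, and their 3 probes, of 55681 in all, were found through the RefSeq accession given in the scanner files. Each probe was printed as 1 spot per array. The family was chosen by measured values: the Onecut3 probe had shown one of the larger level differences between motor neurons and GFP-off cells on these same arrays. The comparison of motor neurons with GFP-off cells is therefore given as a description, without a test, while the comparison of genotype labels was not used to choose the genes and was tested.

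Onecut proteins bind DNA through a single CUT domain and a homeodomain. Onecut1, also called HNF6, was described first in liver, where it drives hepatocyte genes, and it also acts in the developing pancreas. In the mouse spinal cord, Onecut factors are made by newly born motor neurons, where they act upstream of the LIM homeodomain gene Isl1, and by several classes of ventral interneurons, including the Renshaw cells that inhibit motor neurons.

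All cells came from spinal cords of E12.5 mouse embryos carrying Hb9::GFP, a reporter in which the regulatory region of the motor neuron gene Hb9 (Mnx1) drives GFP. The cells were parted by flow cytometry into GFP-on cells (motor neurons) and GFP-off cells (non-motor neurons), and their RNA was measured on 1-colour arrays. Motor neurons were hybridised to 2 arrays labelled mir-17~92 -/- ; Hb9::GFP and 2 labelled WT ; Hb9::GFP. GFP-off cells were hybridised to 1 array labelled mir-17~92 -/- ; Hb9::GFP and 1 labelled WT ; Hb9::GFP. They are called KO-labelled and WT-labelled arrays here. The labels do not say how many embryos went into an array, and they give the sex as not determined, so p-values measure the spread between these arrays, which may be technical.

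The deleted cluster encodes microRNAs, short RNAs that pair with messenger RNAs mainly through their seed, bases 2 to 8. The mature sequences of 5 of its microRNAs are shown because the knockout label names the loss of the cluster that encodes them. Whether the mature microRNAs were absent was not measured. They are from RefSeq (GRCm38.p6, hairpins within chr14:115043671-115044506, plus strand), with the seed in capitals.
mmu-miR-17-5p: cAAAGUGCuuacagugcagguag
mmu-miR-20a-5p: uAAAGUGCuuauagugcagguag
mmu-miR-19a-3p: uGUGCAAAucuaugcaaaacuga
mmu-miR-19b-3p: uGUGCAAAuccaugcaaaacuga
mmu-miR-92a-3p: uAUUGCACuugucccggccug
The 5 sequences carry 3 seeds. miR-17-5p and miR-20a-5p share AAAGUGC, miR-19a-3p and miR-19b-3p share GUGCAAA, and miR-92a-3p has AUUGCAC. Onecut transcripts were not searched for matches to these seeds.

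The arrays differed in brightness. Their 75th percentile, in units of processed signal, was 59.9 and 506 on the KO-labelled motor neuron arrays (replicates 1 and 2), 48.5 and 64.5 on the WT-labelled ones, and 550 and 341 on the KO-labelled and WT-labelled GFP-off arrays. Between 41.0% and 62.3% of probe spots were well above background. The KO-labelled motor neuron arrays lay in row 1 of the slide and all others in row 2, so row and genotype label cannot be told apart in motor neurons. The WT-labelled motor neuron arrays also stood apart from the rest, with correlations of 0.736 to 0.903 to the other arrays, which gave 0.930 to 0.984 among themselves, over 19075 probes. The probe of Mir17hg, the host transcript of the cluster, had log2 signals of 4.55 to 4.78 on the 3 KO-labelled arrays and -2.38 to 2.73 on the 3 WT-labelled arrays. A probe inside the deletion would be low in embryos that lack the cluster. Where the probe sits was not known, and so the genotypes are named as labelled throughout.

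Below, a level is the log2 processed signal minus the array's 75th percentile, so a level of 0 equals that percentile. A probe was called well above background by the scanner software. The floor of an array is the lowest signal called so.

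Onecut2 was the member measured on every array, and its level was far higher in motor neurons. Its levels were 2.80 and 2.67 on the KO-labelled motor neuron arrays, 3.48 and 3.60 on the WT-labelled motor neuron arrays, -0.74 on the KO-labelled GFP-off array and -0.60 on the WT-labelled GFP-off array. All 4 motor neuron arrays lay above both GFP-off arrays, and all 6 values were well above background. The mean level was 3.14 ± 0.47 in motor neurons (SD, n = 4) and -0.67 ± 0.10 in GFP-off cells (SD, n = 2), a difference of 3.81 on the log2 scale, or 14-fold. The difference was 3.47 within the KO-labelled arrays and 4.14 within the WT-labelled arrays.

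Onecut3 was measured in motor neurons and not well above background in GFP-off cells. Its levels were -2.09 and -1.77 on the KO-labelled motor neuron arrays and -1.28 and -2.41 on the WT-labelled ones, against -7.07 and -6.42 on the KO-labelled and WT-labelled GFP-off arrays. Well above background were 3 of the 6 values, all from motor neurons. The value of WT-labelled motor neuron replicate 2 lay just under its array's floor, by 0.11 on the log2 scale. Both GFP-off values were 2.10 or more below their floors, so the fold is given against the floor. By the means of normalised log2 values, with each GFP-off array at its floor, Onecut3 was at least 6.73-fold higher in motor neurons. This mean includes 1 motor neuron value just under its floor. The bound was at least 8.23-fold within the KO-labelled arrays and at least 5.50-fold within the WT-labelled arrays, where 1 of the 2 motor neuron arrays was above background. In bulk RNA such as this, fewer cells of a type and less RNA per cell cannot be told apart.

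Onecut1 was close to the detection limit. Its levels were -4.01 and -3.97 on the KO-labelled motor neuron arrays, -3.34 and -2.99 on the WT-labelled ones, and -7.19 and -6.53 on the KO-labelled and WT-labelled GFP-off arrays. Only KO-labelled motor neuron replicate 2 was well above background. Of the 4 motor neuron values, 3 were under their array's floor, as were both GFP-off values, so their order was not measured. A bound is therefore taken from that 1 array alone, which was at least 1.59-fold higher than the GFP-off arrays at their floors.

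**Figure D1:**
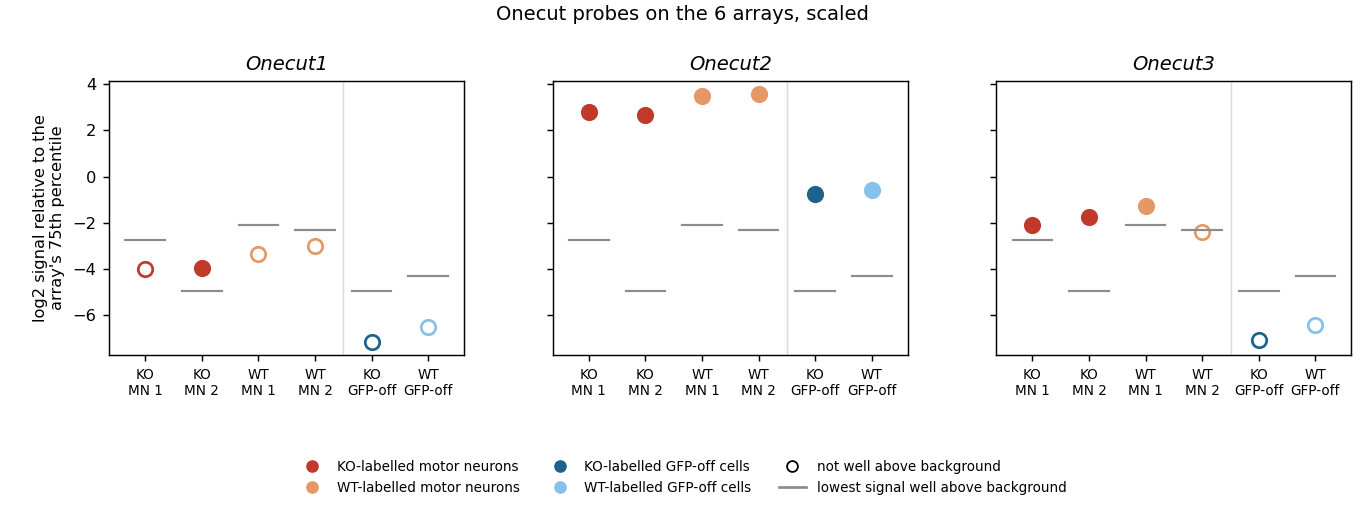
Level of each Onecut probe on the 6 arrays, as log2 signal relative to the array's 75th percentile, with 1 point per array, open where the probe was not well above background, and a grey line at each array's floor. Onecut2 is filled on all 6 arrays, Onecut3 on 3 motor neuron arrays and Onecut1 on 1, so for Onecut1 and Onecut3 the GFP-off points show only that the signal was below the grey line.

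The signals before scaling show how much of each difference depends on array brightness. KO-labelled motor neuron replicate 2 was the motor neuron array whose brightness was like that of the GFP-off arrays. On the GFP-off arrays the floor was 17.6 (KO-labelled) and 17.2 (WT-labelled) in processed signal. On this motor neuron array, the processed signal of Onecut2 was 3211, against 329 and 225 on the KO-labelled and WT-labelled GFP-off arrays. For Onecut3 it was 149, against 4.09 on the KO-labelled and 3.99 on the WT-labelled GFP-off array. For Onecut1 it was 32.4, against 3.76 on the KO-labelled and 3.67 on the WT-labelled GFP-off array. All 3 genes were thus above the floor of either GFP-off array there with no scaling.

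On the 3 dimmer motor neuron arrays the unscaled picture differed between the genes. Onecut2 had 417 on KO-labelled replicate 1, and 542 and 782 on the WT-labelled arrays, still above both GFP-off arrays. Onecut3 had 14.1 on KO-labelled replicate 1, and 19.9 and 12.1 on the WT-labelled arrays. Of these, 14.1 and 12.1 lie under the GFP-off floors, so their unscaled order against GFP-off cells was not measured. Onecut1 had 3.73 on KO-labelled replicate 1 and 4.80 and 8.10 on the WT-labelled ones, none of them above background. With no scaling between arrays, the difference in log2 signal between motor neurons and GFP-off cells was 1.67 for Onecut2.

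**Figure D2:**
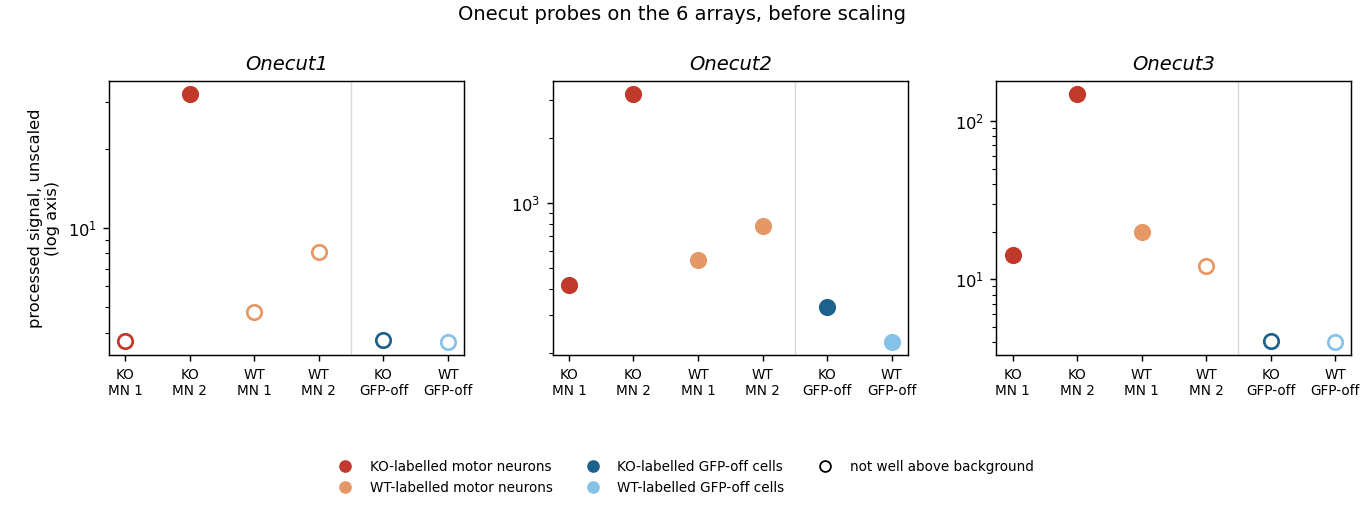
Processed signal of each Onecut probe on the 6 arrays before any scaling, on a log axis that differs between panels, with 1 point per array, open where the probe was not well above background. KO-labelled motor neuron replicate 2 is the brightest array for each gene (3211 for Onecut2), and for Onecut1 it is the only filled point.

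Replicate 2 of the KO-labelled motor neurons also gave the difference to GFP-off cells without the dim arrays. Against the mean of both GFP-off arrays, its level was higher by 3.34 for Onecut2, and against their floors it was at least 7.31-fold higher for Onecut3. By the values as scaled, below background or not, all 3 Onecut probes had every motor neuron array above both GFP-off arrays, as did 9.42% of the 33265 probes tested, of which Onecut1 was not one. Onecut1 and Onecut3 were above background on at least 1 motor neuron array and on no GFP-off array, as were 3.86% of all 55681 probes. The genes were chosen with this comparison in view, so nothing is read from these shares.

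Markers of several cell types moved with the sort. Sums of linear levels, in multiples of the array's 75th percentile, are given for each list. Of 10 measured motor neuron markers, 9 or 10 were above background on each array, and their summed linear level was 102 and 117 on the KO-labelled and 48.2 and 45.1 on the WT-labelled motor neuron arrays, against 15.1 and 12.3 on the KO-labelled and WT-labelled GFP-off arrays. Interneuron markers (10 measured) summed to 44.0 to 60.6 in motor neurons and 15.3 to 21.2 in GFP-off cells. Sensory neuron and neural crest markers (8 measured) summed to 39.1 to 74.7 in motor neurons and 14.4 to 14.7 in GFP-off cells. Erythroid markers (8 measured) were the other way, with 247 to 578 in motor neurons and 1387 to 1515 in GFP-off cells, as were mesenchyme markers (8 measured), with 323 to 515 in motor neurons and 777 to 1077 in GFP-off cells. The part of these markers in the Onecut differences was not tested.

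Whether Onecut transcripts change when the mir-17~92 cluster is lost was addressed by setting the genotype labels against each other in motor neurons. Neither Onecut probe that was tested was called in either direction, at a background of 24.8% of all 33265 probes tested, 10.6% as higher and 14.2% as lower in the KO-labelled arrays. Onecut2 was lower in both KO-labelled arrays (2.80 and 2.67) than in both WT-labelled arrays (3.48 and 3.60), with means of 2.73 ± 0.09 in the KO-labelled and 3.54 ± 0.08 in the WT-labelled group (SD, n = 2 each). The log2 difference of -0.81 ± 0.51 (SE) did not pass limma's test (adjusted p = 0.254 over 33265 probes), and its 95% interval ran from -1.95 to 0.33. The gap exceeds the SDs of Onecut2's own arrays, while the SE from limma, which pools the spread across probes, is larger than either. The labels did not overlap for Onecut2, as for 39.7% of all probes tested, with both KO-labelled arrays below both WT-labelled ones, and a further 29.8% had them above. With normexp background correction they did overlap, at 2.04 and 2.58 in the KO-labelled and 2.56 and 2.84 in the WT-labelled arrays. Leaving out WT-labelled replicate 1 gave -0.87 and leaving out replicate 2 gave -0.75, without a call in either case.

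For Onecut3 the 2 genotype labels overlapped in motor neurons. The KO-labelled arrays (-2.09 and -1.77) lay between the WT-labelled arrays (-1.28 and -2.41), with means of -1.93 ± 0.23 in the KO-labelled and -1.85 ± 0.80 in the WT-labelled group (SD, n = 2 each). The log2 difference was -0.08 ± 0.57 (SE, limma adjusted p = 0.933), with a 95% interval from -1.37 to 1.22. Its sign is not settled, since it became 0.37 with quantile normalization and 0.56 with the array median in place of the 75th percentile, without passing in either. It was 0.49 without WT-labelled replicate 1, -0.64 without WT-labelled replicate 2 and 0.08 without KO-labelled replicate 1, again with no call.

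Onecut1 was not tested, because it was above background on 1 of the 6 arrays and 2 were required. Its level difference of -0.82 in motor neurons rests on values under the floor on 3 of 4 arrays, and no fold is given since both WT-labelled arrays were below background. For a single probe in 2 groups of 2 arrays, the smallest p of an exact two-sided permutation test is 0.333, which means that any call draws on the pooled spread. Among all probes called, the share that were higher was 42.7%, and it was 80.1% with quantile normalization, 73.9% with the array median and 67.8% with normexp background correction. The median difference of all probes was -0.20, and these settings moved it by 0.25, 0.64 and -0.26.

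Marker lists also differed between the labels in motor neurons. Motor neuron markers summed to 102 and 117 in the KO-labelled and 48.2 and 45.1 in the WT-labelled arrays. The largest term was Nefl, at 5.97 and 6.10 in the KO-labelled and 5.08 and 4.93 in the WT-labelled arrays, which did not pass. Of the 10 markers 4 rose and none fell, while 15.0% of all 14919 genes tested rose and 6.57% fell. Those that rose were Prph (by 4.44 on the log2 scale), Isl1 (2.57), Isl2 (1.97) and Slc5a7 (bound of at least 2.33-fold). Chat (-0.34) and Lhx4 (-0.35) did not pass. Microglia and macrophage markers (10 measured) summed to 25.3 and 27.7 in the KO-labelled and 8.70 and 13.4 in the WT-labelled arrays, with 9 or 10 of them above background on the KO-labelled and 6 on the WT-labelled arrays. Neural progenitor markers (8 measured) summed to 115 and 134 in the KO-labelled and 62.7 and 33.0 in the WT-labelled arrays. The largest terms in the KO-labelled arrays were Vim (difference of 1.70, did not pass) and Fabp7 (2.98, called). Of 7 tested, 3 rose and none fell, and Nes (-0.98) and Pax6 (-0.63) did not pass. Of the endothelial markers (7 measured), Cdh5 (bound of at least 6.36-fold) and Cldn5 (by 2.45 on the log2 scale) rose in the KO-labelled arrays. None fell and 5 did not pass, with fitted differences of both signs among those 5. The Cldn5 level on WT-labelled replicate 1, -2.25, lay under that array's floor of -2.10, so its fitted size rests in part on a value below background. The sum of the 7 was 116 in WT-labelled motor neuron replicate 2 and 9.16 to 25.7 on the other 5 arrays, a gap carried by 1 probe of Kdr, a growth factor receptor gene, at a level of 6.83 there, while its other probe gave a genotype difference of 0.52 against -2.54. The part of these cells in the Onecut2 difference was not tested.

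In GFP-off cells each genotype label had 1 array, so values alone are given. Onecut2 had a level of -0.74 on the KO-labelled and -0.60 on the WT-labelled array, a difference of -0.14, which became 0.11 with the array median. Onecut1 and Onecut3 were not above background on either array, so no fold is given. The order of the 4 groups for Onecut2 was WT-labelled motor neurons, KO-labelled motor neurons, then WT-labelled and KO-labelled GFP-off cells, and neither pair of neighbours within a cell fraction was shown to differ, since the first did not pass and the second had 1 array each.

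Whether the motor neuron difference depended on the genotype label was tested as an interaction. For Onecut2 the difference was 3.47 in KO-labelled and 4.14 in WT-labelled arrays, an interaction of -0.67 ± 0.88 on the log2 scale (SE, limma adjusted p = 0.842, 95% interval -2.64 to 1.31). For Onecut3 the fitted differences were 5.14 in KO-labelled and 4.57 in WT-labelled arrays, which rest on GFP-off signals below the floor, and the interaction was 0.58 ± 0.99 (limma adjusted p = 0.886, 95% interval -1.66 to 2.82). The test called 0 of 33265 probes (0.00%), with 2807 at an unadjusted p under 0.05 in limma. The single GFP-off arrays were assumed to vary like the motor neuron arrays. The fit also treated all arrays as independent, although each GFP-off array shares a tag in its description with replicate 1 of the motor neurons of the same label, and what the tag means is not stated. Within these pairs Onecut2 was higher in motor neurons by 3.54 (KO-labelled) and 4.08 (WT-labelled).

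Genes related to the family were described by lists chosen with the biology in view, but with earlier results of these data known. Their counts are therefore a description. Of all 14919 genes tested, each by the probe with the highest mean, 15.0% were called higher and 6.57% lower in KO-labelled motor neurons, with a median log2 difference of 0.34. The CUT-domain relatives are DNA-binding proteins with more than 1 CUT or CUT-like domain. Of the 3 reported, 2 rose, none fell and 1 did not pass, with a list median of 1.60. Satb1, a chromatin organiser, had levels of 2.14 and 2.25 on the KO-labelled and -0.61 and -0.75 on the WT-labelled motor neuron arrays. The labels did not overlap, as for the 29.8% of all 33265 probes tested that had both KO-labelled arrays above both WT-labelled ones. Satb1 rose by 2.87 ± 0.51 (SE, limma adjusted p = 0.0107). Cux1 rose by 1.60 ± 0.51 (adjusted p = 0.0494), while its other tested probes gave 0.51 and -2.48. Cux2, of upper-layer cortical neurons, gave 0.03 (-0.13 with normexp) and did not pass.

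Of 14 measured motor neuron genes, 3 rose, none fell and 11 did not pass, with a median of 0.42. The counts take 1 probe per gene. Foxp1 gave -0.77, with 1.42 and -2.16 on its other tested probes, while those of Esrrg and Rbfox3 kept their sign. Mmp9 was above background on neither WT-labelled motor neuron array. Isl1, the gene downstream of Onecut factors in mouse motor neurons, had levels of 2.46 and 2.86 on the KO-labelled and 0.05 and 0.12 on the WT-labelled motor neuron arrays. It rose by 2.57 ± 0.51 (adjusted p = 0.0141, limma), where Onecut2 gave -0.81 on the same arrays. Against GFP-off cells Isl1 differed by 0.81, with levels of 1.04 and 0.09 on the KO-labelled and WT-labelled GFP-off arrays, inside the range of the motor neurons. Isl2, a second LIM homeodomain gene of motor neurons, rose by 1.97 ± 0.61, and Slc5a7, which takes up choline for acetylcholine synthesis, gave a bound of at least 2.33-fold higher, with 0.51 on its other probe. Lhx4, which acts with Lhx3 in motor neuron specification, gave -0.35 (0.29 with the array median), and Chat, which makes acetylcholine, gave -0.34 (0.30 with the array median).

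Of 13 measured genes of ventral interneuron populations, none rose, 2 fell and 11 did not pass, with a median of 0.09. By 1 probe per gene, Foxp2 gave 0.09 and Pou2f2 -0.45, while their other tested probes gave -2.15 and 0.86. En1 and Sim1 were above background on neither WT-labelled motor neuron array. Pax2, of inhibitory interneurons, had levels of -4.11 and -3.66 on the KO-labelled and -1.45 and -1.33 on the WT-labelled motor neuron arrays. Sox14, a transcription factor gene of V2a interneurons, fell by 3.15 ± 0.59 (limma adjusted p = 0.0126), and Pax2 fell by 2.49 ± 0.52 on the brightest of its 3 probes, with -2.11 and -2.18 on the others. Sox14 and Pax2 had 1 of 2 KO-labelled motor neuron arrays above background. With the other at its floor the differences were -2.16 for Sox14 and -1.82 for Pax2, so the fitted sizes exceed what was measured. Foxd3, a transcription factor gene of Renshaw cells that shares this lineage with Onecut factors in mouse, gave 0.41 and did not pass, and Calb1, a calcium-binding protein gene of the same cells, was above background on fewer than 2 of the 6 arrays.

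Liver and pancreas genes of the Onecut1 network were above background in 7 or 8 of 13 cases on the 3 brighter arrays and in 2 or 3 on the 3 dimmer ones. Of 13 with a probe, 8 were tested, and Hnf4a, Foxa3, Pdx1, Afp and Alb were above background on fewer than 2 of the 6 arrays. None of the 8 rose, 1 fell and 7 did not pass, with a median of 0.43. Foxa1, Foxa2, Prox1, Ttr and Cebpa were above background on neither WT-labelled motor neuron array. Their differences changed sign with normexp, so the median rests in part on values below background. The gene that fell was G6pc, the last enzyme of glucose release by liver, by 2.70 ± 0.56 (limma adjusted p = 0.0153), with 1 of 2 KO-labelled arrays above background, and the difference was -2.21 with the other at its floor. The summed linear level of the 13 genes was 1.88 to 2.34 in motor neurons and 0.989 to 1.238 in GFP-off cells. On the dimmer arrays these sums include many values below background. Neurog3 was the largest term in motor neurons, at -0.36 to -0.02, against -2.52 and -2.16 on the KO-labelled and WT-labelled GFP-off arrays.

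Calls in these lists moved with the scaling. The 8 called genes kept their sign with quantile normalization, the array median and normexp. Satb1 and Isl1 were called under all 3, while Slc5a7 was not called with normexp, and Cux1, Isl2, Sox14, Pax2 and G6pc were called with the array median alone.

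**Figure D3:**
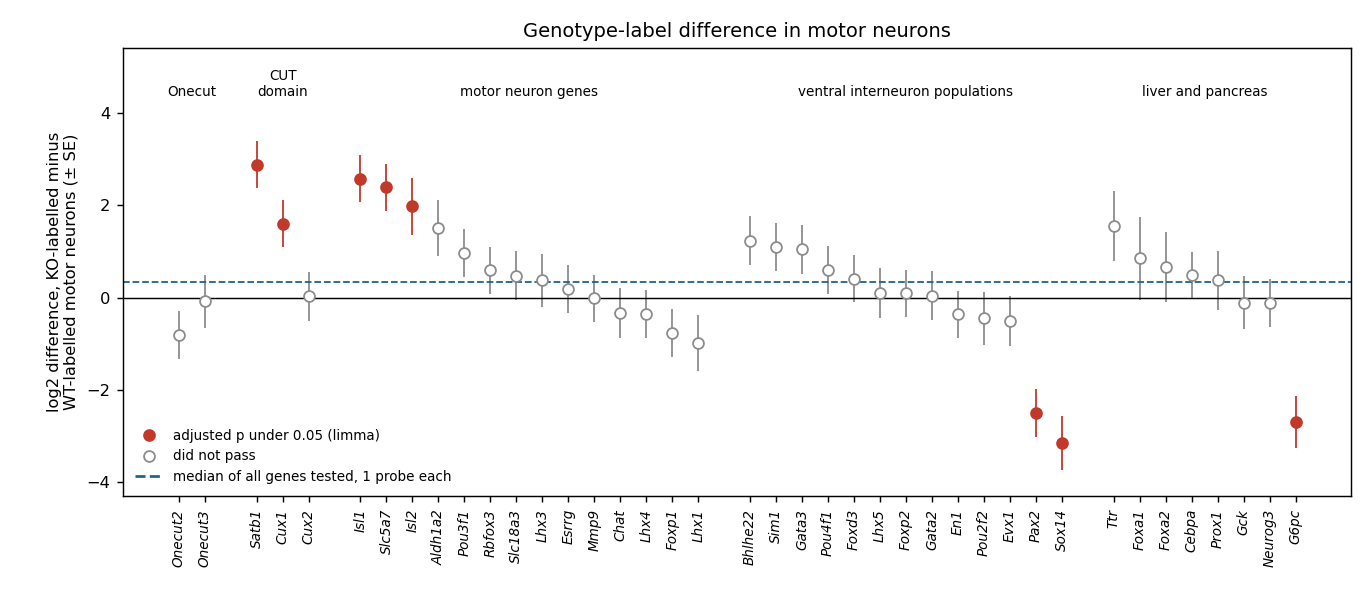
Log2 difference of KO-labelled minus WT-labelled motor neurons (± SE, n = 2 each) for the 2 tested Onecut probes and the tested members of the 4 lists, filled red where limma's adjusted p was under 0.05. Onecut2 (-0.81) and Onecut3 (-0.08) are open, while Satb1 (2.87) and Isl1 (2.57) are among those called; the dashed line is the median of all genes tested (0.34).

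The genes whose levels varied most like those of an Onecut gene were found by the root mean square difference of log2 levels over the 6 arrays, each gene centred on its own mean. Among the 5 nearest to Onecut2 were Myadml2 (0.27), the LIM homeodomain gene Lhx4 (0.29), Pcsk1n, encoding a neuroendocrine convertase inhibitor (0.29), and Tmem130 (0.30). Lhx4 had levels of -0.43 and 0.12 on the KO-labelled and 0.22 and 0.15 on the WT-labelled motor neuron arrays, against -4.04 and -3.70 on the KO-labelled and WT-labelled GFP-off arrays. As for Onecut2 and for 39.7% of all probes tested, both KO-labelled motor neuron arrays lay below both WT-labelled ones, with 0.12 against 0.15 at the closest. The Lhx4 genotype difference was 0.29 with the array median. Lhx4 was selected for its nearness to Onecut2 on these arrays, so nothing further is read from the shared order.

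For Onecut3 the nearest were Esrrb, a nuclear receptor gene (0.31), Nms, the neuropeptide neuromedin S gene (0.48), Foxd3 (0.54), Lhx4 (0.57) and Slc4a10, a bicarbonate transporter gene (0.58). Esrrb had levels of 1.73 and 1.97 on the KO-labelled and 2.43 and 1.43 on the WT-labelled motor neuron arrays, against -2.53 and -2.15 on the KO-labelled and WT-labelled GFP-off arrays. As for Onecut3, WT-labelled replicate 1 was the highest motor neuron array and replicate 2 the lowest, an order that the selection by nearness favours. Myadml2 was above background on 3 arrays, Nms on 4 and Slc4a10 on 2, so their distances rest in part on values below background. The same holds for every distance to Onecut3, which was itself above background on 3 of the 6 arrays.

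Between the Onecut genes, the distance was 0.71 between Onecut2 and Onecut3, 0.30 between Onecut1 and Onecut2 and 0.91 between Onecut1 and Onecut3, with those of Onecut1 resting on 5 arrays at which it was not above background. Among the 5 genes nearest to Onecut1, on the same footing, were Myadml2 (0.21), Lgi4 (0.22), Rnf208 (0.24) and Mapt (0.25). All these patterns are dominated by the difference between the sorted fractions and share the 6 arrays and their scaling.

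**Figure D4:**
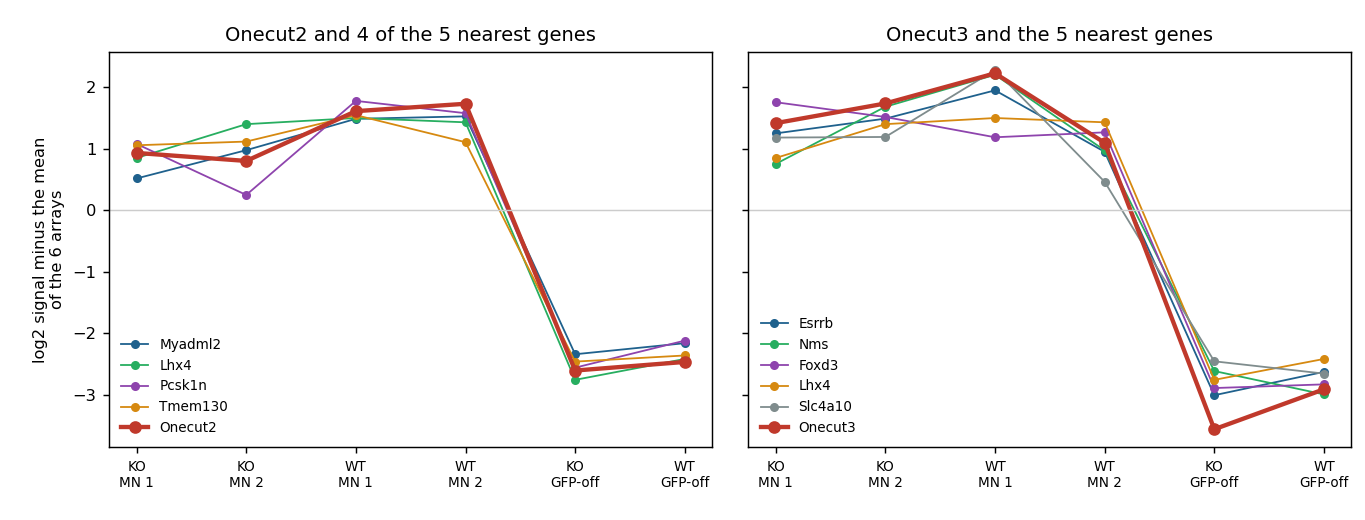
Log2 signal minus the mean of the 6 arrays for Onecut2 (left) and Onecut3 (right), in thick red, with 4 of the 5 genes nearest to Onecut2 and the 5 nearest to Onecut3, and 1 point per array. Each line is high on the 4 motor neuron arrays and low on the 2 GFP-off arrays, and the genes shown lie 0.27 to 0.30 from Onecut2 and 0.31 to 0.58 from Onecut3.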

How the data were processed

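Spot intensities were extracted by Agilent Feature Extraction, version 10.5.1.1 with build mm9 per the file headers and 9.1 per the submitters' processing notes. The deposited processed signal is an intensity, background-subtracted, detrended and floored within the array by that software; raw median signals and local backgrounds are also intensities. The authors' value table is in log2 and equals the values used here within 0.01 for all 55669 probes compared. Deposited flags of other kinds mark spots above background, saturated or irregular; no probe spot was saturated.

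Here, unflagged spots of a probe were averaged as log2 processed signals, and the 75th percentile of each array was subtracted. Probes well above background on at least 2 of 6 arrays were fitted (33265) with lmFit and eBayes of limma 3.58.1 under R 4.3.3 (4 group means, 2 residual degrees of freedom), with Benjamini-Hochberg adjustment over all probes and a threshold of 0.05. Of 55681 probes, 26300 were named through RefSeq (assembly GRCm38.p6); with builds differing, no probe coordinates are given. Array number limits precision.

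The genes, lists and tests were chosen with earlier results of these data known. From each list, all called members up to 4 were named, with the CUT-domain relatives and the 5 genes nearest to each Onecut gene; the other list members given beside them were chosen after their values were seen. Some list members and 1 nearest gene are not reported here, and list counts and sums leave them out. Steps were tested on simulated data. Alternatives were other scalings, background correction, filters, models, the replicate block and leaving out arrays. The correlation of replicate differences between the 2 labels (r = -0.096 over probes) gave no sign that shared replicate numbers pair the motor neuron arrays. It cannot exclude such a pairing. Tags shared by a motor neuron and a GFP-off array of each label were not used as a block.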

Additional observations from a re-analysis of the deposited data

How the results depend on the processing

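No Onecut probe was called between genotype labels in motor neurons, or in the interaction, under any of the alternatives run. For Onecut2 the genotype difference stayed below 0 in all 15 (-0.94 to -0.17, limma adjusted p 0.199 to 0.9997), -0.17 with the array median and -0.39 with normexp. Several of the 15 could not change it. The authors' table, the filters, 1 probe per gene, the replicate block and the motor neuron arrays alone keep its group means. Each of these gave -0.81 and says nothing about how stable the sign is. For Onecut3 it was 0.37 with quantile normalization and 0.56 with the array median, ran from -0.64 to 0.49 when 1 array was left out (0.08 without KO-labelled replicate 1, 0.49 without WT-labelled replicate 1), and was -1.41 with a spike-in covariate, an alternative chosen after the data were seen. The cause was not tested. With the replicate block Onecut2 gave -0.81 (adjusted p = 0.413) and no Onecut call changed; replicate differences of the 2 labels correlated with r = -0.096 over probes. The difference between motor neurons and GFP-off cells for Onecut2 was 3.04 with normexp and 1.67 with no scaling. For Onecut3, with GFP-off signals below the floor, it was 2.13 with normexp and 2.72 with no scaling. That of Onecut1 is a bound only. With the tags shared between arrays as a random block, chosen after the data were seen, no fit was possible, since each GFP-off group has 1 array and the correlation could not be estimated. Probes called between genotype labels numbered 8257, against 1970 with quantile normalization, 1332 with normexp, 3433 with 1 probe per gene, 22 with the spike-in covariate, 2106 without KO-labelled replicate 2, 3244 without WT-labelled replicate 2, and, in limma, 0 with no filter (11502 at an unadjusted p under 0.05) and 0 in the additive model (11193). Interaction calls numbered 0, against 130 with the array median, 92 with the replicate block, 1 each with normexp background correction and with all 6 arrays above background, and 38 to 76 without 1 KO-labelled array. List members called numbered 8, against 4 with quantile normalization, 13 with the array median, 2 with normexp, 0 with no filter, 5 when background was passed on all 6 arrays and 4 to 9 without 1 array (4 without either KO-labelled motor neuron replicate). In GFP-off cells, Onecut probes higher in the KO-labelled array numbered 0, and 1 with the array median. Onecut3 could not be fitted when all 6 arrays had to be above background, nor Onecut1 under either filter.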
